A study of Mus musculus with 10 samples.

Results

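Vesicle traffic genes are described here in cochlear RNA of mice fed germanium dioxide (GeO2) and of control mice. The members are the genes of the authors' deposited table of changed genes whose symbol begins with Rab, Arf, Arl, Vps, Snx, Stx, Vamp, Cop or Sec, with 2 genes left out by name (a further exclusion, by annotation to DNA replication or mitosis, removed 0). They number 93 genes and 123 probe sets, of 5478 genes and 7806 probe sets in that table and 45037 probe sets on the arrays. That table was used for names and the changes were computed from the array signals. All animals were male CBA mice, an inbred strain used in hearing research, and were 6 months old. The GeO2 group (5 samples) had 0.15% GeO2 in the diet for 4 months, and the control group (5 samples) had normal chow. RNA of a sample was read on an Affymetrix array of its own, where a probe set, a group of short probes for a transcript, gives a signal in arbitrary units. Whether a sample came from a single animal or from pooled animals is not in the labels, and the design notes state that no replicates were made. P-values therefore reflect the spread among the samples alone, and that spread may be technical.

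Membrane proteins and secreted proteins enter the endoplasmic reticulum (ER) through a translocon and leave it in vesicles with a COPII coat, while COPI-coated vesicles return proteins from the Golgi. Rab and Arf GTPases mark each membrane and recruit coats, motors and tethers, and SNARE proteins (syntaxins and VAMPs) fuse the vesicle with its target. Retromer, sorting nexins and ESCRT complexes then sort cargo in endosomes towards recycling or the lysosome. In the cochlea this traffic supplies ion channels to the stria vascularis, extracellular matrix proteins to the tectorial membrane, and synaptic vesicles to hair cells.

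Of the 93 genes, 90 were bright enough to be tested, each through its probe set with the highest mean among those in the deposited table. Arl10a, Rabif and Rabl3 were too dim there. Other probe sets of these genes on the arrays, which may be brighter or unchanged, are unnamed here. A gene is called higher or lower here when its adjusted p in limma is under 0.05 (Benjamini-Hochberg over 27022 probe sets, two-sided). By that rule 31 genes rose and 21 fell in GeO2, which is 57.8% of those tested, and 38 did not pass, with adjusted p from 0.0511 to 0.207. Over all probe sets tested 16.3% were called, 8.5% higher and 7.81% lower. Over the probe sets of the authors' deposited table, which were selected on these same arrays at an unadjusted p-value, 59.7% were called, 31.2% higher and 28.5% lower. The share among vesicle traffic genes lies near the latter, so the number called says nothing particular about them. Rises made up 59.6% of the called members, against 49.7% of the 2985 other table genes called and 52.1% of all called probe sets. The median log2 change over the 90 genes was 0.31, against -0.02 over all probe sets tested, 0.25 over those of the deposited table and -0.24 over its other genes at 1 probe set each. A median of genes selected for change in either direction can lie well off 0. The groups did not overlap in 50 genes at 1 probe set each (55.6%), against 12.2% of all probe sets tested and 43.7% of those in the deposited table. The latter shares count every probe set, and a share at 1 probe set per gene was not computed for the table.

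**Figure D1:**
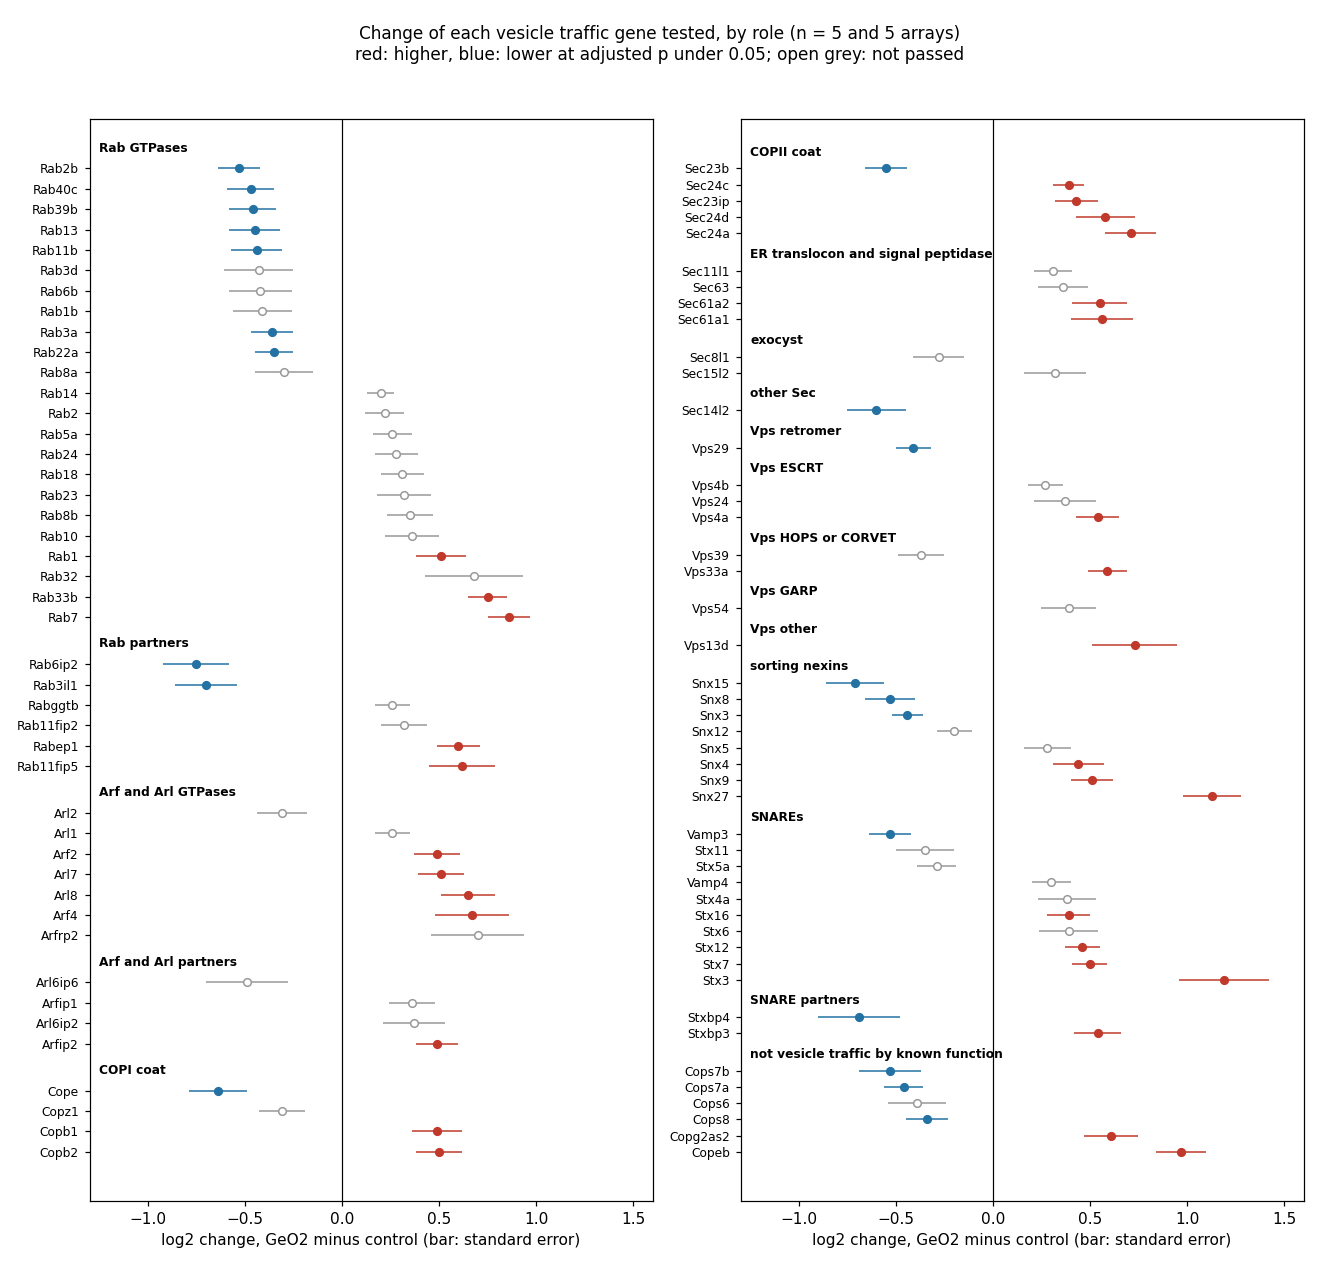
Log2 change (GeO2 minus control, x axis) of each of the 90 vesicle traffic genes tested, arranged by role. Points are fitted changes over 5 and 5 arrays and bars are standard errors. Red and blue points passed the threshold (31 higher, 21 lower) and open grey points did not. The Arf and Arl GTPases called lie to the right of 0, while Rab GTPases, sorting nexins and coat subunits lie on both sides.

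Changes were moderate in size. Fold values, which are powers of 2 of the log2 changes, ran from 1.31 to 2.28 among the genes that rose (median 1.46) and from 1.27 to 1.68 among those that fell (median 1.44). At 1 probe set each, Stx3 and Snx27 were the 2 members called with a change of at least 2-fold. Stx3 passed the brightness filter only through its GeO2 arrays. Another probe set of Sec61a1, not the one used for that gene, was called with a 2.06-fold rise. In each GeO2 array all 31 called-higher genes lay above their control mean, by 0.56 to 0.66 log2 units on average, and none of the 21 called-lower genes did, their average being -0.44 to -0.60. The control arrays averaged -0.08 to 0.09 and -0.07 to 0.06. These values describe genes chosen for the difference. Of the 52 called genes, 34 kept an adjusted p under the threshold whichever array was left out.

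**Figure D2:**
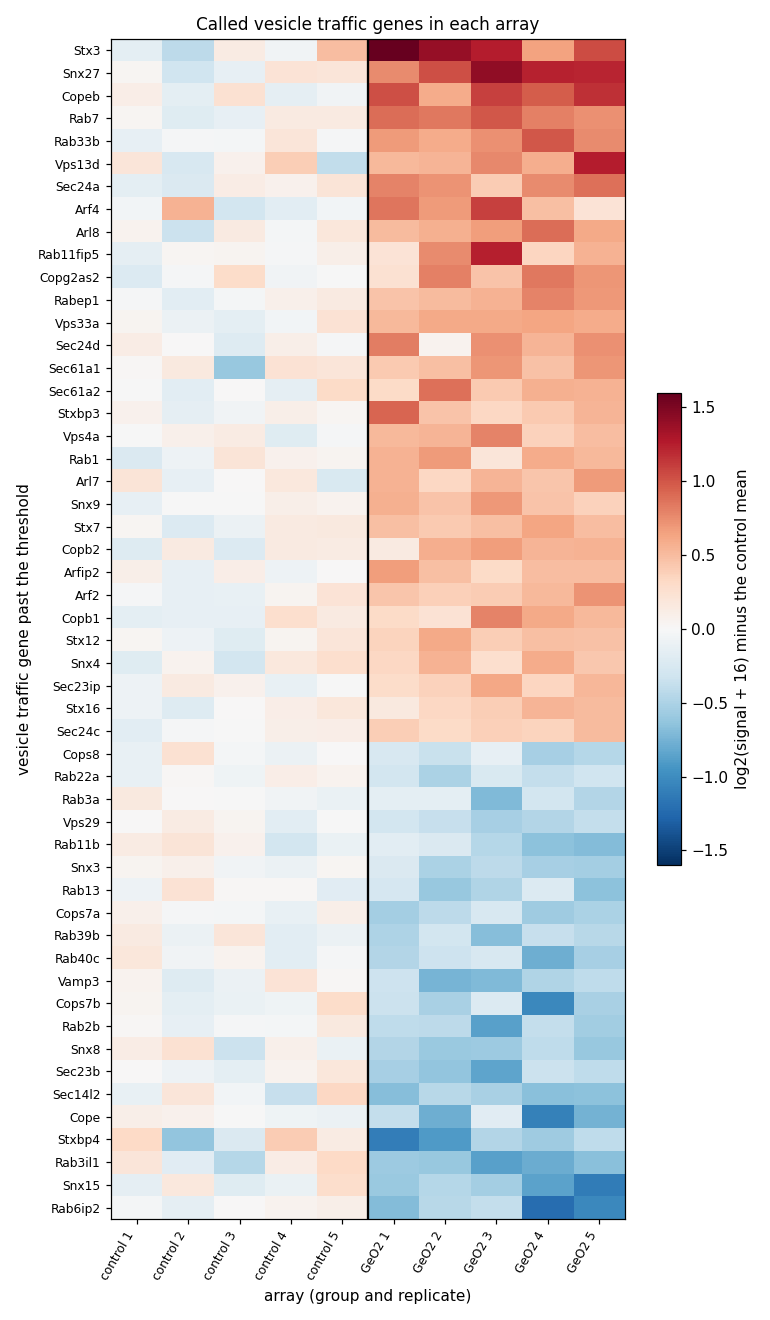
Colour map of the 52 called vesicle traffic genes (rows, from the largest rise to the largest fall) in the 10 arrays (columns, control left of the line and GeO2 right). Colour is log2(signal + 16) minus the control mean of the gene, red above and blue below. The GeO2 columns are red in the upper 31 rows and blue in the lower 21, and the control columns vary around white.

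Whole cochlear tissue was sampled, so fewer cells of a type and less RNA per cell cannot be told apart. Marker genes of other cells can be named only where they stand in the deposited table, which was selected for change, so the tallies below are fixed in part by that selection and other markers on the arrays are unnamed here. Of 18 listed erythroid markers 15 were so named and tested, and 14 fell, with a summed signal of 57440 to 119388 units in GeO2 arrays and 125328 to 217688 in control arrays. All 17 named markers of dividing cells (of 18) fell, with sums of 11167 to 42116 against 33673 to 73031. The 3 named macrophage markers (of 16) and 2 named neutrophil markers (of 16) rose, with sums of 9179 to 32187 against 6278 to 12263 and of 2932 to 25941 against 460 to 1717. Of 22 cochlear markers 8 were named and tested, 6 of them lower and 1 higher, with sums of 81227 to 109312 against 97481 to 126728, and 1 of 15 hair cell markers was (Myo6, higher). Of the other lists, 3 of 5 named myelin markers fell and 1 rose, 2 of 5 named bone and cartilage markers rose and 1 fell, 1 of 2 named neuronal markers rose and the 1 named B cell marker did not pass. None of 16 muscle markers stood in the deposited table, which says nothing of their level. No named marker was at 0, and the part of these cells in the changes below was not tested.

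At the entrance to the secretory pathway, both genes for the pore subunit of the translocon rose. Sec61a1 signal was 2359, 2461, 2889, 2435 and 2872 units in GeO2 and 1785, 1965, 1154, 2071 and 2005 in control arrays, each list running from replicate 1 to 5. All GeO2 arrays lay above all control arrays, with control replicate 3 lowest. The rise was 1.47-fold (log2 change 0.56, SE 0.16, adjusted p = 0.0325). Leaving out GeO2 replicate 3, 4 or 5 or control replicate 1 ended the call (adjusted p up to 0.0799). Its other probe set in the deposited table, which was selected for change, rose too (log2 change 1.04, adjusted p = 0.00675). Sec61a2, its paralog, had 3024, 4496, 3256, 3628 and 3588 units in GeO2 and 2420, 2173, 2447, 2207 and 3029 in control, with GeO2 replicate 1 just under the highest control, and rose 1.46-fold (log2 change 0.55, SE 0.14, adjusted p = 0.0167). Sec63, an ER membrane partner of the translocon (log2 change 0.36, adjusted p = 0.0785), and Sec11l1 (now Sec11a), the catalytic subunit of signal peptidase (log2 change 0.31, adjusted p = 0.0511), did not pass.

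All 5 COPII genes among the members were called, 4 higher and 1 lower, where 59.7% of the deposited table's probe sets and 16.3% of all tested were called. COPII genes outside that table, which was selected for change, are not described here. The 3 members for cargo-binding Sec24 proteins and Sec23ip rose, and Sec23b, whose product activates the GTPase of the coat, fell. Sec24a signal was 2815, 2677, 2142, 2745 and 2998 units in GeO2 and 1443, 1369, 1750, 1702 and 1873 in control. The groups were well apart, and the rise was 1.64-fold (log2 change 0.71, SE 0.13, adjusted p = 0.00419). Sec24c rose 1.31-fold, from 12385 ± 942 in control to 16181 ± 847 units in GeO2 (SD, n = 5; log2 change 0.39, adjusted p = 0.00818). Its other tested probe set, much dimmer, had the same sign and did not pass (log2 change 0.31, adjusted p = 0.242). Sec24d, needed for procollagen export in fish and human, had 3472, 2049, 3279, 2877 and 3267 units in GeO2 and 2143, 1971, 1699, 2102 and 1944 in control. GeO2 replicate 2 lay within the control range, and the rise (log2 change 0.58, SE 0.15, adjusted p = 0.0201) missed the threshold when GeO2 replicate 5 was left out (adjusted p = 0.0547). Sec23ip, a Sec23-binding protein at ER exit sites, was 4203 ± 414 against 3102 ± 231 units (SD, n = 5) in GeO2 and control (log2 change 0.43, adjusted p = 0.0165). Sec23b went the other way, with 6821, 6373, 5506, 7814 and 7428 units in GeO2 and 9940, 9346, 8840, 10282 and 11165 in control. Every GeO2 array was below every control array, a 1.47-fold fall (log2 change -0.55, SE 0.11, adjusted p = 0.00656).

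Of 4 COPI genes among the members, 2 rose, 1 fell and 1 did not pass (75% called, against 59.7% of the deposited table's probe sets and 16.3% of all tested). Copb1, the beta subunit, had 4825, 4562, 6785, 5938 and 5568 units in GeO2 and 3491, 3567, 3552, 4704 and 4308 in control. GeO2 arrays were mostly higher, but replicate 2 lay below control replicate 4. The 1.41-fold rise (log2 change 0.49, SE 0.13, adjusted p = 0.0263) lost its call in 6 of the 10 fits that left out 1 array (GeO2 replicate 3, 4 or 5, control replicate 1, 2 or 3, adjusted p up to 0.0708). Copb2, the beta-prime subunit, had 7165, 9718, 10314, 9459 and 9498 units in GeO2 and 5620, 7132, 5534, 7174 and 7111 in control. GeO2 replicate 1 was the lowest of its group and overlapped the controls by a few units, and the other 4 were well above them (1.42-fold, log2 change 0.50, SE 0.12, adjusted p = 0.0171). A further Copb2 probe set in the deposited table also rose (log2 change 0.45, adjusted p = 0.0268). Cope, the epsilon subunit, fell 1.55-fold, with 6114, 4624, 7043, 3771 and 4699 units in GeO2 and 8532, 8368, 7939, 7624 and 7443 in control and no overlap (log2 change -0.64, SE 0.15, adjusted p = 0.0133). Copz1, the zeta subunit, was 4911 ± 871 against 6019 ± 384 units (SD, n = 5) and did not pass (log2 change -0.31, adjusted p = 0.108).

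Promoter sequences from RefSeq (GRCm38.p6, 250 bases before to 50 after the transcription start) matched 82 of the 93 genes and were searched on both strands for 8 motifs, chosen with earlier results known. The unfolded protein response element TGACGTGG, bound by XBP1 and ATF6, was in 4 of 82 members (4.88%), namely Copb1, Copb2, Sec24d and Stx5a. It was in 3 of 25 members called higher and in none of 19 called lower, against 1.06% of 4143 table genes and 0.714% of all 27025 genes. The stretch from 120 bases before to 20 after the start is shown for the 3 called higher, all coat genes, with the motif on either strand in capitals. Stx5a is not shown because it was not called higher (log2 change -0.29, adjusted p = 0.0651). Its matches begin at bases 10 and 40 after the start. Sec24d is at chr3:123267376-123267515 (plus strand) with the match beginning 26 bases before the start, Copb1 at chr7:114254661-114254800 (minus strand) 28 before, and Copb2 at chr9:98563611-98563750 (plus strand) 7 before, all written 5′ to 3′ in the direction of transcription.
Sec24d: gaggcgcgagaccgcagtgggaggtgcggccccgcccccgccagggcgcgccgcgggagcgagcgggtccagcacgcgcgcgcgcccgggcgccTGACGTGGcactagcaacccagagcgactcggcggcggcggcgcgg
Copb1: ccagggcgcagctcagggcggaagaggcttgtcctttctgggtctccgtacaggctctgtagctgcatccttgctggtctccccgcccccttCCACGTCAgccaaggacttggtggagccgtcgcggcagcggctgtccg
Copb2: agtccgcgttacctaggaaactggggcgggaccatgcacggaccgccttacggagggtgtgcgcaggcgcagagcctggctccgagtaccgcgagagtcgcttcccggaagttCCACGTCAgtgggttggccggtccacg
The TCACGTGA core of the CLEAR element, bound by the lysosomal regulator TFEB, was in 6 of 82 members (7.32%: Arl2, Rab24, Rab5a, Sec23ip, Stx6 and Vps33a), against 2.22% of table genes and 1.12% of all. It is shown for the 2 of them that rose, Vps33a at chr5:123572996-123573135 (minus strand, matches 29 and 13 bases before the start) and Sec23ip at chr7:128744750-128744889 (plus strand, 54 before).
Vps33a: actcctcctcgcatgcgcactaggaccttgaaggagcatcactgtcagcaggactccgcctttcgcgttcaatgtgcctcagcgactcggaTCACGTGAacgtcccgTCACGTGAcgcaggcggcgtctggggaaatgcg
Sec23ip: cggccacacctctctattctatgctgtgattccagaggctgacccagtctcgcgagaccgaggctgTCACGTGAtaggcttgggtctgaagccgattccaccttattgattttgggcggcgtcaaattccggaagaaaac
The other 6 motifs were the ER stress response element (0 of 82 against 0.193% of table genes and 0.137% of all), TGACGTCA (cAMP response element, 4.88% against 4.08% and 2.03%), the palindrome bound by NRF1 (1.22% against 2.08% and 1.07%), TGATGNAA (ATF4 with CHOP, 2.44% against 2.66% and 4.51%), ACTTCCGGT (ETS factors, 3.66% against 2.56% and 1.21%) and CCAAT (NF-Y, 48.8% against 43.9% and 41.1%). The motifs TGACGTGG, TGACGTCA and TCACGTGA share the letters ACGT, and CCAAT is part of the ER stress response element. Base composition differed between these sets, with a median of 63.3% G and C in the members' windows, 61.7% in table genes and 52.7% in all. A match is a run of letters and shows no binding.

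**Figure D3:**
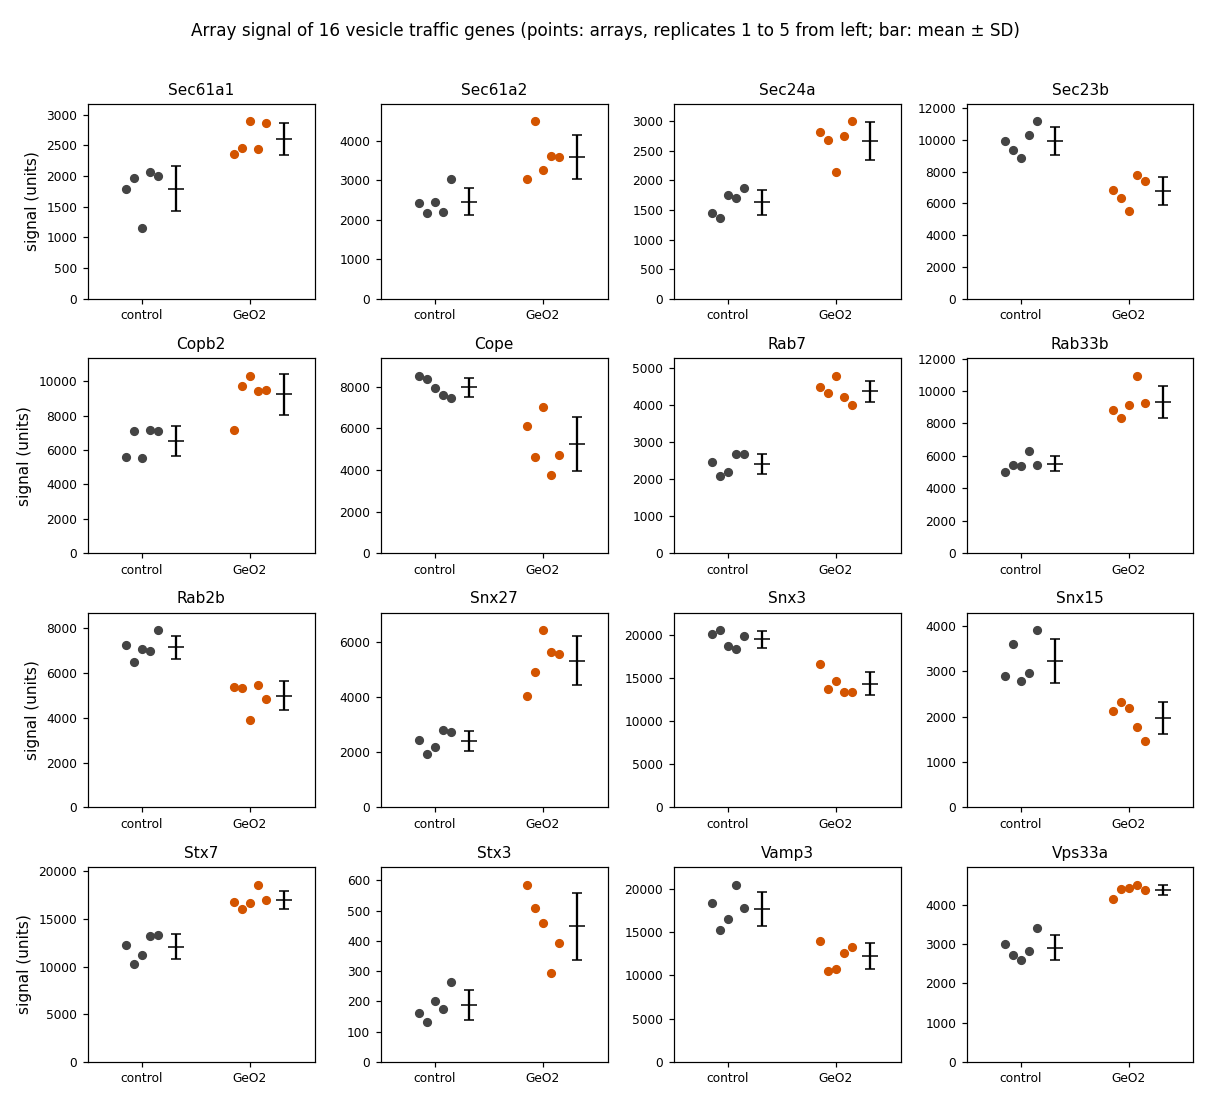
Signal (y axis, arbitrary units, starting at 0) of 16 vesicle traffic genes in the 5 control (grey) and 5 GeO2 (orange) arrays, with replicates 1 to 5 from left to right in each group and the mean ± SD beside them. Genes of 1 complex moved in opposite directions, as Sec24a (up) and Sec23b (down) in the COPII coat and Copb2 (up) and Cope (down) in the COPI coat.

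Of 23 Rab GTPases listed under a symbol of the rule, 3 rose, 7 fell and 13 did not pass (median log2 change 0.20). The share called was 43.5%, against 59.7% of the deposited table's probe sets and 16.3% of all tested. Rab31, listed under an older symbol, did not pass (log2 change 0.29, adjusted p = 0.103). Rab7, which directs late endosomes to the lysosome, had 4480, 4316, 4776, 4218 and 3989 units in GeO2 and 2451, 2089, 2184, 2657 and 2660 in control. The lowest GeO2 array stood well above the highest control, and the rise was 1.81-fold (log2 change 0.86, SE 0.11, adjusted p = 0.000811). Rab33b, a Golgi Rab that also takes part in autophagosome formation, had 8810, 8354, 9118, 10936 and 9286 units in GeO2 and 5032, 5451, 5387, 6314 and 5451 in control. It too was separated in all arrays (1.68-fold, log2 change 0.75, SE 0.10, adjusted p = 0.00107). The third to rise was listed as Rab1, the name of a Rab of ER-to-Golgi transport (1483 ± 178 against 1037 ± 120 units (SD, n = 5), log2 change 0.51, adjusted p = 0.0218), which missed the threshold when GeO2 replicate 2 or 5 or control replicate 1 was left out (adjusted p up to 0.0609).

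Among the Rabs that fell, Rab2b, of the ER-Golgi boundary, had 5362, 5348, 3903, 5452 and 4852 units in GeO2 and 7248, 6494, 7059, 6990 and 7911 in control, without overlap (1.44-fold lower, log2 change -0.53, SE 0.11, adjusted p = 0.00851). Rab40c, which joins a ubiquitin ligase, had 2697, 2981, 3136, 2178 and 2589 units in GeO2 and 4233, 3597, 3889, 3338 and 3690 in control (log2 change -0.47, SE 0.12, adjusted p = 0.0213), and it missed the threshold when GeO2 replicate 5 (adjusted p = 0.0535) or control replicate 1 (0.0611) was left out. The remaining 5 had smaller falls and less stable calls. Rab39b, a neuronal Rab (log2 change -0.46, adjusted p = 0.0248), lost its call without GeO2 replicate 5 or control replicate 1 or 3 (up to 0.0686). Rab13, of epithelial junctions (log2 change -0.45, adjusted p = 0.0314), lost it in 6 of 10 such fits (without GeO2 replicate 2 or 5 or control replicate 1, 2, 3 or 4, up to 0.0845) and under a shift of the arrays to a common median (0.0577). Rab11b, of recycling endosomes (log2 change -0.44, adjusted p = 0.0412), lost it in 7 of 10 (without GeO2 replicate 3, 4 or 5 or control replicate 1, 2, 3 or 5, up to 0.106), with no filter (0.0594) and with no trend (0.0629). With the mean of all its probe sets its change had the other sign (log2 change 0.03, adjusted p = 0.898). Rab22a, of early endosomes (log2 change -0.35, adjusted p = 0.0328), lost it in 7 of 10 (without GeO2 replicate 2, 4 or 5 or control replicate 2, 3, 4 or 5, up to 0.0780) and under the shift to a common median (0.121). Rab3a, the Rab of synaptic vesicles (log2 change -0.36, adjusted p = 0.0495), lost it in 8 of 10 (without GeO2 replicate 3, 4 or 5 or control replicate 1, 2, 3, 4 or 5, up to 0.123), and also with quantile normalization (0.0531), the shift (0.0758), no filter (0.0778), no trend (0.0857) or a fit on the mean of each gene's probe sets (0.0583). The Rab3a probe set, 1459980_x_at, is of a type marked by the manufacturer as open to cross-hybridisation. Another probe set matched to Rab11b under an older name had an opposite change that did not pass (log2 change 0.50, adjusted p = 0.0939). Among the 13 that did not pass were Rab5a of early endosomes (log2 change 0.26, adjusted p = 0.104), Rab10 (log2 change 0.36, adjusted p = 0.0916), Rab8b (log2 change 0.35, adjusted p = 0.0616), Rab1b (log2 change -0.41, adjusted p = 0.0783) and Rab6b (log2 change -0.42, adjusted p = 0.087). The other 8 (Rab2, Rab3d, Rab8a, Rab14, Rab18, Rab23, Rab24 and Rab32) had log2 changes from -0.43 to 0.68 at the probe set used. Another Rab18 probe set rose without overlap (log2 change 0.89, SE 0.18, adjusted p = 0.0066).

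Rab partners were called in 4 of 6 cases (66.7%, against 59.7% of the deposited table's probe sets and 16.3% of all tested). Rabep1 (rabaptin-5), an effector of Rab5, rose 1.51-fold, with 4625, 4777, 4956, 5851 and 5454 units in GeO2 and 3318, 2990, 3303, 3553 and 3738 in control (log2 change 0.60, SE 0.11, adjusted p = 0.00356). No array of the groups overlapped, although its other probe set did not pass (log2 change 0.38, adjusted p = 0.0671). Rab11fip5, an effector of Rab11, had 2576, 3748, 5231, 2814 and 3256 units in GeO2 and 1990, 2264, 2273, 2182 and 2348 in control (log2 change 0.62, SE 0.17, adjusted p = 0.0251), with GeO2 replicate 3 far above the rest. It missed the threshold when GeO2 replicate 2 (adjusted p = 0.0528) or control replicate 1 (0.0648) was left out. Rab6ip2 (now Erc1), a scaffold of exocytosis sites, fell 1.68-fold, from 1641 ± 102 to 991 ± 245 units (SD, n = 5; log2 change -0.75, SE 0.17, adjusted p = 0.00974). Rab3il1, a nucleotide exchange factor for Rab3a, fell in both its tested probe sets (log2 change -0.70, adjusted p = 0.0102 and log2 change -0.84, adjusted p = 0.00987). In the former no GeO2 array reached the lowest control. Rabggtb, of the enzyme that adds lipid anchors to Rabs (log2 change 0.26, adjusted p = 0.0665), and Rab11fip2 (log2 change 0.32, adjusted p = 0.0994) did not pass.

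Of 7 Arf and Arl GTPases tested under a symbol of the rule, 4 rose and none fell. The share called was 57.1%, against 59.7% of the deposited table's probe sets and 16.3% of all tested. Arl16, listed under an older symbol, pointed down and did not pass (log2 change -0.39, adjusted p = 0.137). Arl8 in the table is the older name of Arl5b, a GTPase of the trans-Golgi, and had 976, 1020, 1102, 1288 and 1051 units in GeO2 and 714, 534, 756, 671 and 777 in control, with no overlap (1.57-fold, log2 change 0.65, SE 0.14, adjusted p = 0.00922). Arf4, a Golgi Arf, had 1945, 1716, 2301, 1498 and 1248 units in GeO2 and 1033, 1573, 869, 951 and 1031 in control. GeO2 replicates 4 and 5 lay below control replicate 2, and the rise (log2 change 0.67, SE 0.19, adjusted p = 0.0315) lost its call in 7 of 10 fits without 1 array (all but GeO2 replicates 4 and 5 and control replicate 2, adjusted p up to 0.0715). Arf2, a Golgi Arf, rose 1.41-fold (log2 change 0.49, adjusted p = 0.0155) and Arl7, now Arl4c, rose 1.43-fold (log2 change 0.51, adjusted p = 0.0137), both with separated groups. Arl1 and Arfrp2 (now Arl15) had positive changes that did not pass, and Arl2 had a negative one (log2 change 0.26, adjusted p = 0.0788; log2 change 0.70, adjusted p = 0.0662; log2 change -0.31, adjusted p = 0.119). Arfip2 (arfaptin-2), which binds Arf and Arl1 at the Golgi, rose from 1695 ± 127 to 2385 ± 211 units (SD, n = 5; log2 change 0.49, SE 0.11, adjusted p = 0.0119), while Arfip1 (log2 change 0.36, adjusted p = 0.0551), Arl6ip2, now Atl2 (log2 change 0.37, adjusted p = 0.127), and Arl6ip6 (log2 change -0.49, adjusted p = 0.126) did not pass.

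The genes listed as Vps, named after yeast mutants in vacuolar protein sorting, held 3 that rose and 1 that fell among 8. The share called was 50%, against 59.7% of the deposited table's probe sets and 16.3% of all tested. Of the Vps genes listed under older symbols, Vps37a rose (log2 change 0.52, adjusted p = 0.0294). Vps13b (log2 change -0.36, adjusted p = 0.0401) and Vps53 (log2 change -0.52, adjusted p = 0.0245) fell, and the others tested did not pass. Vps33a, which guides SNARE assembly in the HOPS complex at the lysosome, had 4156, 4399, 4424, 4511 and 4374 units in GeO2 and 2996, 2720, 2602, 2819 and 3406 in control. The GeO2 arrays lay within a narrow range above all controls (1.51-fold, log2 change 0.59, SE 0.10, adjusted p = 0.00323). Vps39, another HOPS subunit, pointed down and did not pass (log2 change -0.37, adjusted p = 0.0577). Vps4a, the ATPase that takes ESCRT filaments apart, had 5042, 5123, 6103, 4540 and 4956 units in GeO2 and 3506, 3719, 3871, 3079 and 3490 in control, again without overlap (1.45-fold, log2 change 0.54, SE 0.11, adjusted p = 0.00668), whereas its paralog Vps4b (log2 change 0.27, adjusted p = 0.0659) and the ESCRT subunit Vps24, now Chmp3 (log2 change 0.37, adjusted p = 0.13), did not pass. Vps29, a core retromer subunit, fell 1.33-fold, with 8467, 8068, 7185, 7479 and 7972 units in GeO2 and 10450, 11338, 10716, 9226 and 10342 in control (log2 change -0.41, SE 0.09, adjusted p = 0.00942). Its other probe set had the same sign and did not pass (log2 change -0.28, adjusted p = 0.161). Vps54, of the GARP tether at the trans-Golgi, missed the threshold at the probe set used for it (log2 change 0.39, adjusted p = 0.0693), while its 2 others rose (log2 change 0.40, adjusted p = 0.0229; log2 change 0.56, adjusted p = 0.0183). Vps13d, a lipid transfer protein, was dim (397 ± 97.3 against 233 ± 55.3 units (SD, n = 5), log2 change 0.73, SE 0.22, adjusted p = 0.0368) and lost its call in 8 of 10 fits without 1 array (all but GeO2 replicate 1 and control replicate 4, adjusted p up to 0.0986) and without a filter (0.0767), and it was not tested with a 60% filter. Its control signals alone lay under the brightness filter, so Vps13d too was tested only through its GeO2 arrays.

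Sorting nexins bind endosomal lipids, and of 8 tested under a symbol of the rule 3 rose and 3 fell (median log2 change 0.04). The share called was 75%, against 59.7% of the deposited table's probe sets and 16.3% of all tested. Of those listed under older symbols, Snx18 rose (log2 change 0.45, adjusted p = 0.0118) and Snx22 fell (log2 change -0.84, adjusted p = 0.0283). Snx21, Snx29 and Snx30 pointed down and did not pass (log2 change -0.48, -0.53 and -0.51, adjusted p = 0.0526, 0.0788 and 0.059). Snx27, which returns receptors and channels from endosomes to the cell surface together with retromer, had 4048, 4902, 6431, 5647 and 5578 units in GeO2 and 2440, 1923, 2182, 2799 and 2748 in control. Each GeO2 array was above each control array, and the rise was 2.19-fold (log2 change 1.13, SE 0.15, adjusted p = 0.00083). Snx9, which works with dynamin in endocytosis, rose 1.42-fold (1931 ± 169 against 1349 ± 82.5 units (SD, n = 5), log2 change 0.51, adjusted p = 0.00938). Snx4, of recycling endosomes, rose 1.35-fold (log2 change 0.44, adjusted p = 0.0306) but lost its call in 6 of 10 fits without 1 array (GeO2 replicate 2, 4 or 5 or control replicate 1, 2 or 3, adjusted p up to 0.0835). Snx15 had 2128, 2336, 2189, 1764 and 1468 units in GeO2 and 2906, 3596, 2793, 2968 and 3908 in control, a 1.64-fold fall with no overlap (log2 change -0.71, SE 0.15, adjusted p = 0.00815). Snx8 also fell (1027 ± 65.3 against 1505 ± 231 units (SD, n = 5), log2 change -0.53, SE 0.13, adjusted p = 0.0176). Snx3, which recruits retromer for Wntless recycling, had 16646, 13746, 14625, 13434 and 13370 units in GeO2 and 20144, 20538, 18665, 18310 and 19828 in control. Its GeO2 arrays were all below the controls (1.36-fold lower, log2 change -0.44, SE 0.08, adjusted p = 0.00453). Snx5, a partner of retromer (log2 change 0.28, adjusted p = 0.134), and Snx12 (log2 change -0.20, adjusted p = 0.151) did not pass.

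SNAREs listed under a symbol of the rule were called in 5 of 10 genes, 4 higher and 1 lower (median log2 change 0.39). The share called was 50%, against 59.7% of the deposited table's probe sets and 16.3% of all tested. Of those listed under older symbols, the syntaxin Stx2 fell (log2 change -0.93, adjusted p = 0.0027). Vamp7 pointed down (log2 change -0.45, adjusted p = 0.0593) and Sec22b pointed up (log2 change 0.29, adjusted p = 0.0948), and neither passed. Stx3, the syntaxin of the apical plasma membrane, had 586, 507, 459, 294 and 393 units in GeO2 and 163, 133, 201, 175 and 265 in control. Its signals were low but separated in all arrays, and its 2.28-fold rise was the largest among the members at 1 probe set each (log2 change 1.19, SE 0.23, adjusted p = 0.00547). Its control signals alone lay under the brightness filter. It was therefore tested only through its high GeO2 signals, and its place as the largest rise depends on that. With an offset of 1 or the lowest 60% of probe sets left out it was below the filter and not tested. Stx7, of late endosomes, had 16721, 16026, 16715, 18595 and 16934 units in GeO2 and 12255, 10279, 11217, 13251 and 13347 in control (1.41-fold, log2 change 0.50, SE 0.09, adjusted p = 0.00407). Its groups too were apart, as were those of Stx12, of recycling endosomes (16879 ± 1130 against 12292 ± 1270 units (SD, n = 5), log2 change 0.46, adjusted p = 0.00569). Stx16, of the trans-Golgi, rose 1.31-fold (log2 change 0.39, adjusted p = 0.0254) and lost its call without GeO2 replicate 4 or 5 or control replicate 1 or 2 (adjusted p up to 0.0691) or with no trend (0.0505). Vamp3 (cellubrevin), the vesicle SNARE of recycling endosomes, fell at its brightest probe set, with 13940, 10481, 10795, 12656 and 13300 units in GeO2 and 18363, 15247, 16527, 20517 and 17851 in control and no overlap (1.45-fold lower, log2 change -0.53, SE 0.11, adjusted p = 0.00654). Vamp4 (log2 change 0.30, adjusted p = 0.0588), Stx6 (log2 change 0.39, adjusted p = 0.083), Stx5a (log2 change -0.29, adjusted p = 0.0651) and Stx11 (log2 change -0.35, adjusted p = 0.141) did not pass.

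Of the syntaxin-binding proteins, Stxbp3 (Munc18c), which regulates Stx4 in regulated exocytosis, had 9721, 7030, 6435, 6842 and 7456 units in GeO2 and 5382, 4626, 4904, 5453 and 5229 in control and rose 1.45-fold without overlap (log2 change 0.54, SE 0.12, adjusted p = 0.0099). Stxbp4, another Stx4 partner, had 780, 902, 1220, 1137 and 1277 units in GeO2 and 2114, 1095, 1449, 2262 and 1865 in control. It fell (log2 change -0.69, SE 0.21, adjusted p = 0.0378) with some overlap, and its call was lost in 6 of 10 fits without 1 array (GeO2 replicate 1, 2 or 4, control replicate 1, 4 or 5, adjusted p up to 0.0974) and after a shift to a common median (0.0760) or without a filter (0.0591). Stx4a itself was 5606 ± 905 against 4298 ± 760 units (SD, n = 5) and did not pass (log2 change 0.38, adjusted p = 0.0892). The exocyst tethers vesicles to the plasma membrane, and its subunits listed under older names, Sec8l1 (Exoc4, log2 change -0.28, adjusted p = 0.152) and Sec15l2 (Exoc6b, log2 change 0.32, adjusted p = 0.194), did not pass at the brightest probe set. The other tested probe set of Sec15l2 rose without overlap (log2 change 0.81, SE 0.19, adjusted p = 0.0141). That probe set passed the brightness filter only through its GeO2 arrays, as its control signals alone lay under it. Sec14l2, a lipid-binding protein, fell from 1362 ± 259 to 885 ± 70 units (SD, n = 5; log2 change -0.60, SE 0.15, adjusted p = 0.0162).

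Probe sets of the same gene did not always move together. Of 19 members with more than 1 probe set tested under their listed name, 15 had changes of 1 sign in all of them and 4 had both signs. Rab11b had both signs too when its probe set under an older name is counted. All these probe sets stand in the deposited table, which was selected for change, so unchanged probe sets of these genes cannot appear in the tally. Rab14, a Golgi and endosome Rab, was called in opposite directions. Probe set 1415686_at had 8594, 9953, 15005, 9907 and 10081 units in GeO2 and 5266, 6366, 5332, 7638 and 7862 in control and rose (log2 change 0.71, SE 0.16, adjusted p = 0.0108). Probe set 1419243_at had 1804, 1617, 1606, 1750 and 1599 units in GeO2 and 2405, 2371, 2204, 2429 and 2479 in control and fell (log2 change -0.50, SE 0.10, adjusted p = 0.00666). The brightest, 1419246_s_at, was above the controls in all GeO2 arrays but did not pass (log2 change 0.20, SE 0.07, adjusted p = 0.0625), except with quantile normalization (adjusted p = 0.0232) or a 60% filter (0.0475). For Vamp3 the probe sets called lower, 1437708_x_at and 1456245_x_at, are of a type marked by the manufacturer as open to cross-hybridisation, and 1433916_at pointed up (log2 change 0.36, adjusted p = 0.105). With the mean of all its probe sets Vamp3 did not pass (log2 change -0.24, adjusted p = 0.188). For Rab2 (now Rab2a) 1449676_at fell (log2 change -0.76, adjusted p = 0.0126) while 1418622_at did not pass (log2 change 0.22, adjusted p = 0.131), and for Snx5 1417648_s_at fell (log2 change -0.52, adjusted p = 0.0485) while 1448791_at did not pass (log2 change 0.28, adjusted p = 0.134). Which transcript each probe set reads was not examined.

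**Figure D4:**
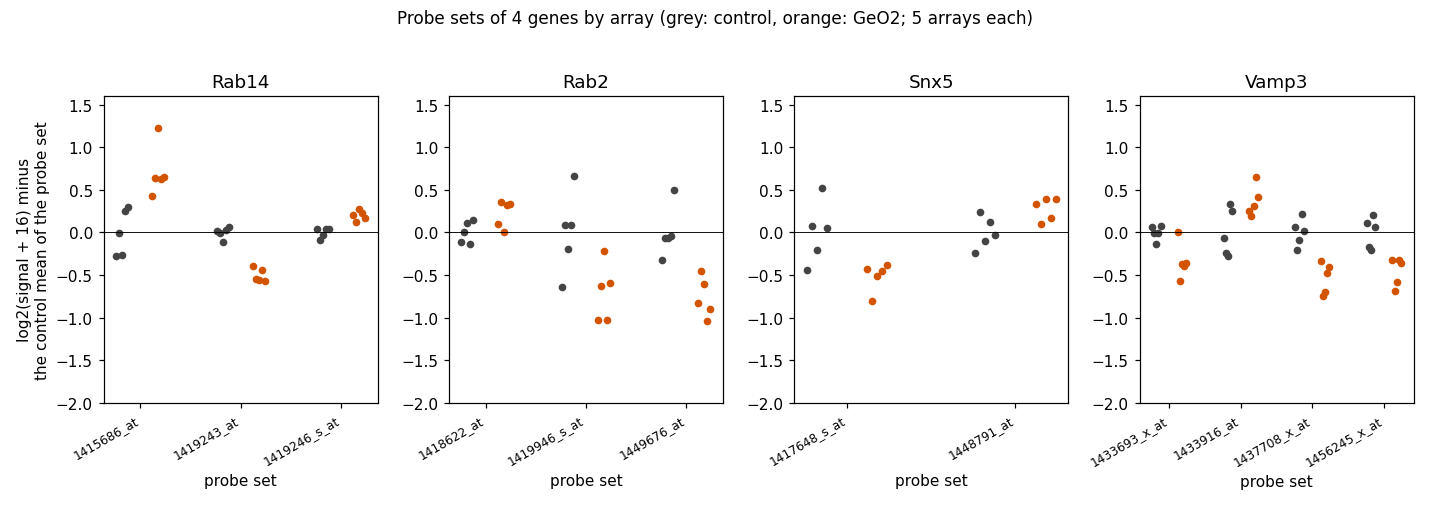
Log2(signal + 16) minus the control mean of the probe set (y axis) in each array for the tested probe sets of Rab14, Rab2, Snx5 and Vamp3 (x axis), control in grey and GeO2 in orange, 5 arrays each. In Rab14 the GeO2 points lie above 0 for 1415686_at (log2 change 0.71) and below it for 1419243_at (-0.50).

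The symbol rule also took in 6 genes that are not of vesicle traffic by their known function. Cops6, Cops7a, Cops7b and Cops8 encode subunits of the COP9 signalosome, which removes NEDD8 from cullin ubiquitin ligases. A further subunit, Cops9, is listed under an older symbol and is not a member, and it was called lower (log2 change -0.49, adjusted p = 0.00738). Cops7a fell, with 3844, 4210, 4707, 3766 and 3960 units in GeO2 and 5957, 5532, 5486, 5150 and 5966 in control and no overlap (log2 change -0.46, SE 0.10, adjusted p = 0.00946). Cops7b (log2 change -0.53, adjusted p = 0.0389) and Cops8 (log2 change -0.34, adjusted p = 0.0463) had falls whose calls were each lost in 8 of 10 fits without 1 array (Cops7b GeO2 replicate 2, 4 or 5 or control replicate 1, 2, 3, 4 or 5, adjusted p up to 0.0913, and Cops8 GeO2 replicate 2, 4 or 5 or control replicate 1, 2, 3, 4 or 5, up to 0.111) and with a shift to a common median (0.0726 and 0.10) or no filter (0.0568 and 0.0643), that of Cops8 also with no trend (0.0752) or a fit on the mean of each gene's probe sets (0.0534), and Cops6 did not pass (log2 change -0.39, adjusted p = 0.0893). Copeb is the older name of the transcription factor Klf6 and had 5940, 4382, 6210, 5688 and 6529 units in GeO2 and 3114, 2602, 3443, 2617 and 2778 in control, a 1.96-fold rise without overlap (log2 change 0.97, SE 0.13, adjusted p = 0.00101). A probe set listed as Klf6 rose too (log2 change 0.56, adjusted p = 0.0464). Copg2as2, by its name an antisense transcript at Copg2, rose 1.53-fold (log2 change 0.61, adjusted p = 0.012), and whether its probes tell the strands apart was not examined. Without these 6 genes, 29 of 84 members rose and 18 fell (56% called, against 59.7% of the deposited table's probe sets and 16.3% of all tested).

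Of a list of 269 further traffic genes outside the symbol rule, 108 were named and tested, 35 rose, 23 fell and 50 did not pass (53.7% called, median log2 change 0.28). The share called lies near, and below, the 59.7% of the deposited table that names them (16.3% of all probe sets tested). Arcn1, the delta subunit of COPI, rose (log2 change 1.14, adjusted p = 0.00376). The clathrin adaptor AP-1 was divided, with Ap1g1 and Ap1s3 higher (0.83 and 0.75, adjusted p = 0.0148 for each) and Ap1s2 and Ap1m1 lower (-0.97, adjusted p = 0.00536, and -0.78, adjusted p = 0.0113). The signal recognition particle, which brings ribosomes to the translocon, was divided too. Srp54 rose (0.66, adjusted p = 0.00388) and Srp9, Srp14, Srp19 and Srp68 fell (-0.51, -0.46, -0.55 and -0.33, adjusted p from 0.00718 to 0.0316). Cargo receptors of the ER and Golgi differed, Lman1 being higher (0.32, adjusted p = 0.0274) and Lman2 lower (-0.63, adjusted p = 0.00568). A further 27 genes carry a symbol with 1 of the rule's beginnings only in the current nomenclature. Of these 25 were tested, 6 were called higher and 6 lower (48% called, against the same 59.7% and 16.3%). The set was taken by symbol alone and includes genes not of vesicle traffic by known function. Cop1, Secisbp2l and Rab10os among those called higher and Cops9 among those called lower are of this kind. Their median log2 change was -0.36. Among them are Rab31, Arl16, Stx2, Vamp7, Sec22b, Vps13b, Vps37a, Vps53, Cops9 and the sorting nexins under older symbols, all given above.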

How the data were processed

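Total RNA of mouse cochlea, 5 GeO2 and 5 control samples, was copied into biotin-labelled cRNA and each sample was read on its own Affymetrix array, per the labels' protocols. Intensities were deposited as linear signals of the 45037 probe sets, made with GCOS 1.3 per the submitters' processing notes. Their 2% trimmed mean was 1496 on every array, so they had been scaled between arrays. Median signals were 446.8 to 508.4 units, and precision is limited by the number of arrays. The authors' deposited table gives an unadjusted p-value (at most 0.04858 in member probe sets) and a score, the fold signed minus for a fall, and was used here for symbols. Its test is not named. It names 7095 probe sets by 1 symbol, 87 by several and 611 by none, and 13 symbols had become dates or numbers. Of the members, 12 symbols were updated through RefSeq gene tables (GRCm38.p6) and 2, Rab1 and Copg2as2, had no unique match and were kept as listed. No column of values was left unused (0).

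For each probe set log2(signal + 16) was taken, the lowest 40% by mean (18015) were left out and limma 3.58.1 in R 4.3.3 (lmFit, eBayes with trend) was fitted over 10 arrays and 27022 probe sets, with Benjamini-Hochberg adjustment. Changes are on the log2(signal + 16) scale, which understates those of low signals. A gene is represented by its tested probe set of highest mean among those in the deposited table. Probe sets outside that table were not eligible. The fit was tested on simulated data. The members, gene and marker lists, roles and motifs were chosen with earlier results of these data known. The named genes are, per role and direction, up to 2 with the largest change past the threshold, every member of a role of 3 or fewer, and those with probe sets called in opposite directions. The others described were chosen after their values were seen. Rab11fip2, Rab11fip5, Rab3il1 and Rab6ip2 were placed with the Rab partners by function. Protein sequences were not used here. Alternatives were quantile normalization, a shift to a common median, a log offset of 1 or 64, no filter or one at 60%, no trend, array weights, a replicate block, the mean of a gene's probe sets, and leaving out each array.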

Additional observations from a re-analysis of the deposited data

Results flagged for a closer look

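In 88 groups of 5 arrays (both groups of each of the 44 named genes), 2 held an array set apart from the others of its group by more than Dixon's 95% critical value, as chance alone gives in about 5% of groups. Copb2 was lowest in GeO2 replicate 1, at 7165 units against 9459 in the next, a gap of 0.762 of the group's range. Sec61a1 was lowest in control replicate 3, at 1154 units against 1785 in the next, a gap of 0.745 of the range.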

How the results depend on the processing

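None of the 44 named genes changed sign in the 10 fits without 1 array or the 10 other alternatives (Rab11b, which the naming rule does not select, did). Over the 10 fits that kept all arrays, 418 of the values for the 44 named genes stayed on their side of the threshold, 8 lost a call and 10 gained one. The 52 genes called became 46 with a shift to a common median, 46 without a filter, 53 with the mean of a gene's probe sets and 70 with array weights, and the share of rises among them was 67.4% after the shift (60.1% over all probe sets called). Leaving out 1 array gave 36 to 54 member genes called, 23 to 35 higher and 13 to 22 lower, 48 to 68 member probe sets, 31 to 61 other traffic genes (58 with all arrays) and 2794 to 4854 probe sets in all (4408 with all arrays). The lowest of these counts came without control replicate 1 (36 member genes, 31 other traffic genes) or GeO2 replicate 5 (37 and 32; 2794 in all). Without GeO2 replicate 4 there were 38 other traffic genes. The median log2 change of Rab GTPases (0.20) became 0.25 with the shift and 0.03 with the mean of probe sets, and that of sorting nexins (0.04) became -0.16 with the latter. The exocyst median (0.02) became -0.28 with the 60% filter, which leaves 1 of its genes and no value for Vps13d. The ESCRT median (0.37) ran from 0.26 (without control replicate 5) to 0.46 when 1 array was left out, and the SNARE median (0.39) from 0.32 (without GeO2 replicate 3) to 0.43. The cause was not tested. Same-numbered GeO2 and control arrays correlated at 0.172, -0.0506, 0.099, 0.114 and 0.0871 in their deviations from the group means, so the numbers were not taken as pairs. With the replicate block 53 genes were called, 34 higher and 19 lower. Under it Sec61a1 (adjusted p = 0.0526), Rab39b (0.0559), Cops8 (0.0605), Rab22a (0.0628) and Vps13d (0.0715) were not called.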

Other observations

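Endosomal and lysosomal genes outside the symbol rule were also called in the same fit. Pik3c3, the lipid kinase that marks early endosomes, rose (log2 change 0.49, SE 0.11, adjusted p = 0.0112), as did Eea1, the early endosome tether (0.56, SE 0.15, adjusted p = 0.0209). The lysosomal membrane proteins Lamp1 (0.31, SE 0.08, adjusted p = 0.0183) and Lamp2 (0.40, SE 0.13, adjusted p = 0.0479) rose. Chm, which escorts newly made Rabs to the enzyme that anchors them, rose (0.51, SE 0.12, adjusted p = 0.0123). Dnm3, a dynamin (-0.91, SE 0.20, adjusted p = 0.0101), the SNARE Snap29 (-0.60, SE 0.17, adjusted p = 0.0302) and Ehd3, of endosome recycling (-0.60, SE 0.13, adjusted p = 0.00776), fell. These genes were picked from the list of further traffic genes after their values were seen.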
